A study of Mus musculus with 2 samples.

Results

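The translation initiation factor genes were taken as the protein-coding genes of the GENCODE M21 annotation whose symbols begin with Eif followed by a digit from 1 to 6, without those on chromosomes X and Y. There were 52 such genes among 21938 protein-coding genes on chromosomes 1 to 19, X and Y. Trimethylation of histone H3 at lysine 4 (H3K4me3) had been mapped by ChIP-seq in MEL cells, an immortalized mouse erythroleukaemia line arrested at an early erythroid stage. The data were peak lists on mm10 from 2 biological replicates of 1 group of cells, without a second condition and without an agent or genotype named in the labels. A gene was called marked where a peak of the replicated list lay within 1000 bp of any of its annotated transcript start sites (TSSs), and such a peak is called a TSS peak.

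H3K4me3 lies on the nucleosomes that flank active and poised promoters, and most promoters rich in CpG dinucleotides carry it. Initiation begins when eIF2, a heterotrimeric GTPase, brings the initiator tRNA to the small ribosomal subunit together with eIF1, eIF1A, eIF3 and eIF5. The eIF4 proteins bind the mRNA cap and unwind the leader, eIF2B recharges eIF2 with GTP, and eIF5B joins the large subunit. Kinases that phosphorylate eIF2 slow the whole process under stress. In erythroid cells the haem-regulated kinase encoded by Eif2ak1 matches globin synthesis to the supply of haem, which makes this gene of particular interest in an erythroid line. The rule leaves out the X-linked and Y-linked genes of eIF2 and eIF1A.

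Of the 52 members, 48 were marked (92.3%), against 50.3% of all protein-coding genes. The same count of 48 was found with the replicate 1 list, where 50.4% of all genes were marked, with the replicate 2 list (50.9%) and with the list of both replicates pooled (50.6%). With only the 5'-most start of each gene, 47 members and 46.9% of all genes were marked. The marked members lay close to their peaks: 44 of the 48 had a start inside one, and the farthest, Eif5a2, had its start 68 bp from a peak. The nearest unmarked member, Eif4e1b, was 4846 bp from one. No call therefore rested on the 1000 bp limit.

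Members unmarked in the replicated, pooled and both replicate lists were Eif4e1b, Eif4e3, Eif4ebp3 and Eif3j2. By promoter composition 3 of them fell outside the class that held most of the members, although for Eif3j2 this depended on the window used. Promoters were classed by the 500 bases on each side of the 5'-most start, and the high-CpG class needed at least 50% GC and a CpG ratio, observed over expected, no lower than 0.6. This class held 45 members (86.5%, against 44.4% of all genes). Among these 44 were marked (97.8%), against 79.8% of all genes of that class. Of 4 members with intermediate promoters 3 were marked, and of 3 with low-CpG promoters, whose ratio was under 0.4, 1 was marked. That 1, Eif4g1, was marked only at internal starts, so 0 of the 3 had a peak at the 5'-most start that was classed. Over all genes 53.0% of the intermediate and 16.6% of the low class were marked.

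Eif4e1b encodes a cap-binding protein known from oocytes. Its promoter had a CpG ratio of 0.169, the lowest of the members, and the nearest replicated peak, 4846 bp from the start, was a weak one of 155 bp at a start of the neighbouring gene Tspan17. Eif4ebp3 encodes a repressor that binds eIF4E. Its CpG ratio was 0.354, and the nearest peak belonged to Sra1, 5123 bp away. Eif3j2 is the paralogue of Eif3j1, which encodes a loosely attached eIF3 component. It had a ratio of 0.802 at 46.0% GC, and 35.9% of the 32-base words of its promoter occurred elsewhere in the genome, so reads from it can be hard to place. What part this had in the missing peak was not tested. Eif3j1 had 17.0% repeated words and was marked in each list. Eif4e1b had 14.0%, and the part of these was not tested either.

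Eif4e3 was the unmarked member inside the high-CpG class. It encodes a cap-binding relative of eIF4E, and its single annotated start on chromosome 6, at position 99666771, lay in sequence with 66.8% GC and a CpG ratio of 0.699, without repeated words. The nearest replicated peak was 41624 bp away, across the 3' end of the gene, 172 bp wide and with a −log10 q of 2.36. In the replicate 1 list the nearest peak was 142581 bp away, and in the replicate 2 list it was 41637 bp away. Its paralogues Eif4e and Eif4e2 were marked in every list. The plot of promoter composition shows Eif4e3 among the marked members.

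**Figure D1:**
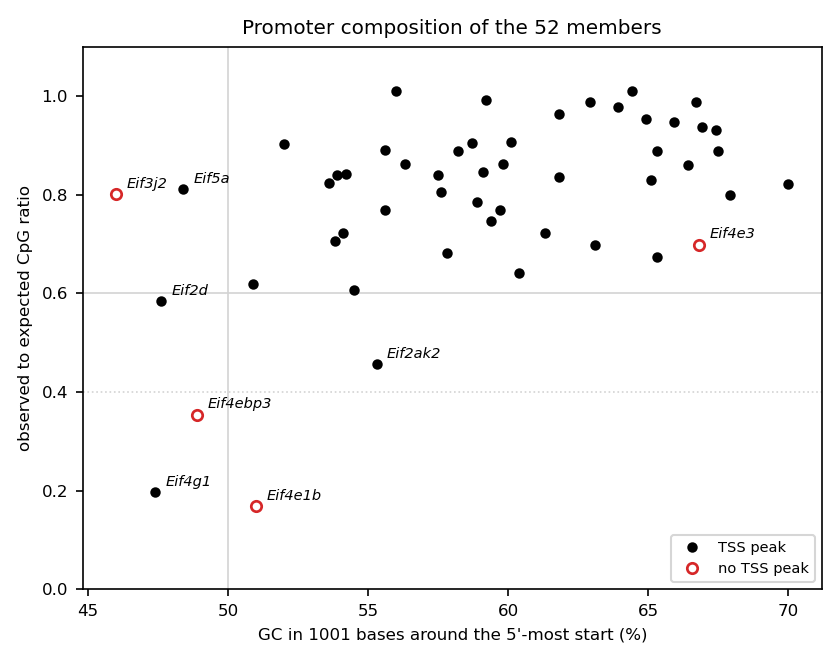
Each point is 1 of the 52 members, placed by the GC percentage (x axis) and the observed to expected CpG ratio (y axis) of the bases within 500 of its 5'-most start. Filled points are the 48 marked members and open red points the 4 unmarked ones, with names for the unmarked members and for those outside the high-CpG class, whose limits are drawn as solid lines, and the dotted line is the low-CpG limit of 0.4. Eif4e3, at 66.8% GC, is the open point inside the high-CpG field.

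Where they were marked, the members had wider domains than the typical marked gene. Peaks of the replicated list separated by gaps of at most 1000 bp were merged into domains, and the widest at each gene's starts was taken. Domain width had a median of 2767 bp over the 48 marked members (lowest 738, highest 6457) and of 2258 bp over all 11037 marked genes. Among high-CpG promoters the medians were 2767 bp for 44 members and 2409 bp for 7773 genes. The members' domain was wider than the median of all marked genes in 37 of 48 (77.1%, against 50% by construction). In the replicate 1 list, 35 of 48 exceeded that list's median, in the replicate 2 list 36 did, and 33 did so in both (68.8%, against 45.2% of the 10964 genes marked in both). The extreme tail held few of them: 3 members, Eif3a, Eif4a2 and Eif5b, were in the widest 5% (6.25%, against 4.99%).

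**Figure D2:**
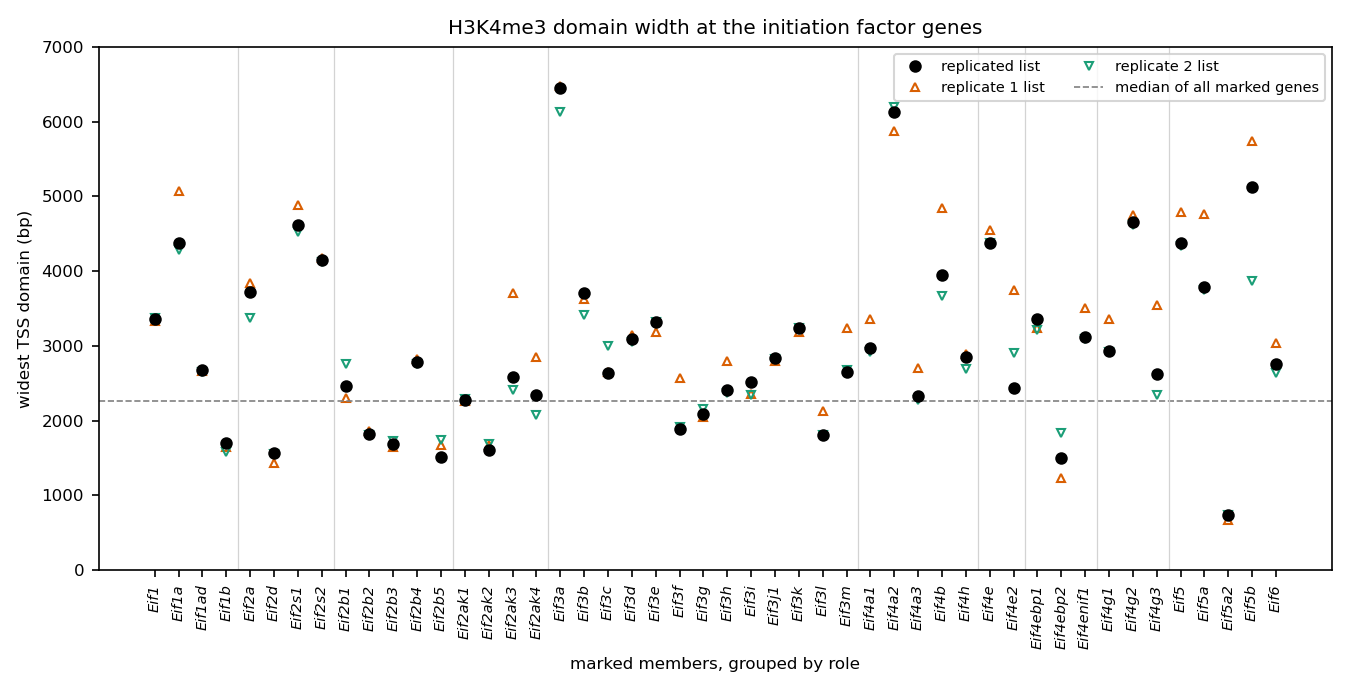
Width in bp of the widest domain (y axis) at the 48 marked members (x axis, grouped by role and separated by vertical lines). Black points are the replicated list, orange triangles the replicate 1 list, green triangles the replicate 2 list, and the dashed line is the median of all marked genes, 2258 bp. Most members lie above the line, Eif3a and Eif4a2 stand highest, and Eif5a2 is lowest at 738 bp.

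Signal was compared by rank, since the peak signal value has its own scale in each list. The signal percentile of a gene is the position of its strongest TSS peak among the marked genes of the list, with 100 the highest. Its median over the members was 66.0 in the replicated list, 75.3 in the replicate 1 list and 57.6 in the replicate 2 list, where all marked genes have 50 by definition. In the replicated list the members spanned nearly the whole range, from 11.0 at Eif4a1 to 99.5 at Eif4a3. In that list 10 of 48 were in the highest 10% (20.8%, against 10% by construction) and 0 in the lowest 10%. The 4 that were in the highest 10% of both replicate lists were Eif2s2, Eif3e, Eif3f and Eif4a3, or 8.33% of the members against 2.75% of all genes marked in both.

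Width and rank differed in how well the replicates agreed. Of the 90 TSS peaks of the members in the replicated list, 89 overlapped a peak in each replicate list. The replicated list was made from both replicates, so this count describes how it was made and does not measure agreement. Across the 48 members, which are not independent replicates, log domain width in the replicate 1 and replicate 2 lists had a Pearson r of 0.938, and 38 members had widths within 1.2-fold of each other (79.2%, against 72.0% of all genes marked in both). The largest gap was 1.53-fold, at Eif2ak3. For the signal percentile r was 0.301 over the same members and 0.499 over 10964 genes. In 16 of 48 members the percentiles were more than 30 points apart (33.3%, against 28.6%), and 32 members ranked higher in replicate 1. Ranks of single genes are those of replicate 1 and replicate 2, in that order, unless the replicated list is named.

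**Figure D3:**
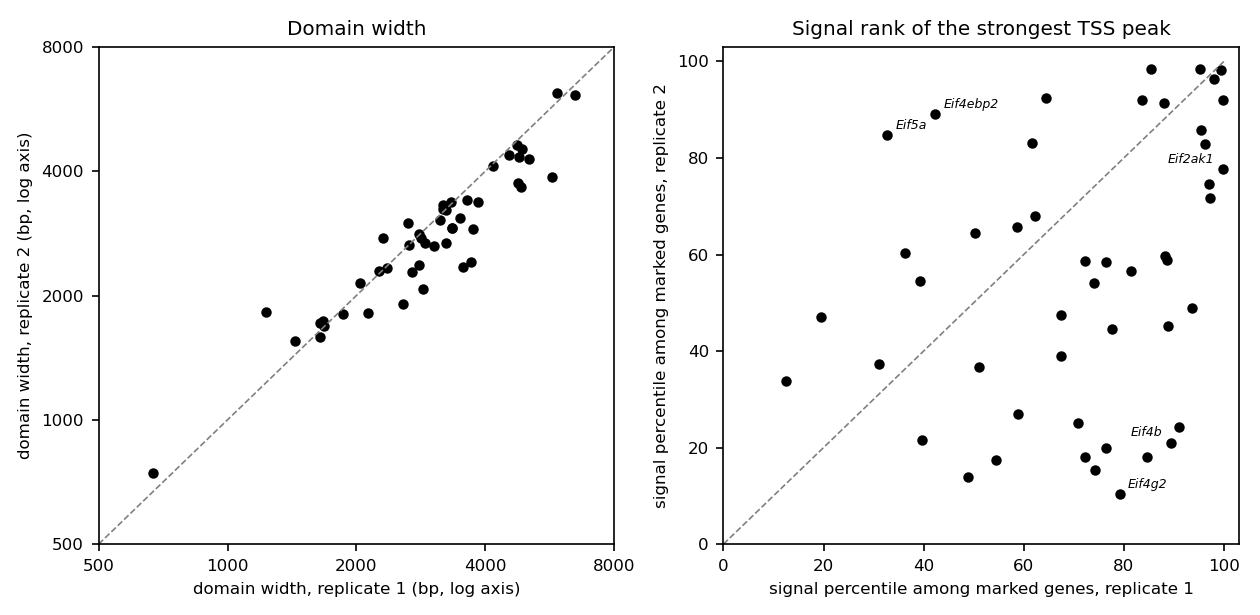
Each point is 1 of the 48 marked members, with the replicate 1 list on the x axis and the replicate 2 list on the y axis. The left panel plots domain width in bp on log axes and the right panel the signal percentile among marked genes, with equality as a dashed line and some members named. Widths follow the line, while percentiles scatter widely, with Eif4b at 89.4 and 21 and Eif5a at 32.7 and 84.7.

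The 4 eIF2 kinase genes were all marked, with domains of 1604 to 2585 bp. Eif2ak1, the haem-regulated kinase, had its strongest peak at chr5:143817765-143819199, 1435 bp wide. Its width was 1370 bp in replicate 1 and 1439 bp in replicate 2, and its domain was 2255 and 2290 bp. The medians of all marked genes were 1163 and 1460 bp for the strongest peak and 2409 and 2228 bp for the domain, and the domain percentile of Eif2ak1 in the replicated list was 51.0. By signal the gene ranked at 99.8 in replicate 1, at 77.7 in replicate 2 and at 66.1 in the replicated list, so that a position near the top was seen in 1 replicate only. A smaller peak of 436 bp lay upstream of the 5'-most start and ended at position -120 bp from it, and the main peak began at -23 bp. In the replicated list the summit fell 135 bp past that start, in coding sequence. All 3 annotated starts were near a peak. A further peak of 277 bp lay in an intron at no annotated start.

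Eif2ak2 encodes the kinase activated by double-stranded RNA, an interferon-induced gene. It had the narrowest domain of the kinases, a single peak at chr17:78881604-78883207, and an intermediate-CpG promoter with a ratio of 0.457. Its signal percentile was 51.0 in replicate 1, 36.7 in replicate 2 and 31.0 in the replicated list, the lowest of the kinases. Eif2ak3, the kinase of the endoplasmic reticulum stress response, had 2 TSS peaks with its start between them, the strongest at chr6:70844533-70845744. Its percentile was 61.7 and 83.2 in the replicates, and its domain was 3702 and 2413 bp. Eif2ak4 encodes the kinase that senses uncharged tRNA. Its main peak at chr2:118388599-118390263 ranked at 62.2 and 68.0 in the replicates and at 82.3 in the replicated list, which lay above both. Eif2ak2 was the lowest of the kinases and Eif2ak1 stood above Eif2ak4 in each replicate, while Eif2ak3 stood below both of these in replicate 1 and above them in replicate 2.

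The RefSeq promoter table for GRCm38.p6, the same build as mm10, held 40 of the 52 members. The upstream sequence of Eif2ak1 is shown as the promoter of the haem-regulated kinase. It runs on the plus strand at chr5:143817542-143817787, the last base printed is 5 bases before the RefSeq start, and bases in annotated exons were left out. Capitals mark matches to the letters searched, here GGGCGG, the box bound by SP and KLF factors, and the CCAAT box, on either strand.
Eif2ak1: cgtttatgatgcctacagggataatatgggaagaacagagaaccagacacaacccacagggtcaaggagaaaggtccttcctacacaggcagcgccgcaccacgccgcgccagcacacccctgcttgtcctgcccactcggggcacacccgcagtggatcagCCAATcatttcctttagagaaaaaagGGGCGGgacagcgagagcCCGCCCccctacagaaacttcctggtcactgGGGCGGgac
Of its 246 bases, 150 lay in the TSS peaks. It held 3 matches to GGGCGG, at 62, 44 and 13 bases before the start, and 1 to CCAAT at 88 bases. The erythroid factor KLF1 belongs to the family that binds such boxes, but GGGCGG is common: it was in 72.5% of the members' promoters of 300 bases, in 48.0% of all 16522 promoters and in 66.7% of those of marked genes. The site AGATAA, which erythroid GATA factors can bind, was not in the printed sequence and occurred in 1 of 40 members' promoters (Eif3c, 2.50%), against 9.71% of all and 6.32% of marked promoters. For both sites only the form given was searched, so other forms bound by KLF or GATA factors were not counted.

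The genes of the eIF2 subunits were marked. Eif2s1 encodes the α subunit, the target of the kinases, and had domains of 4879 and 4519 bp in the replicates, with a strongest peak of 3200 bp at chr12:78861787-78864986. Eif2s2, which encodes the β subunit, had domains of 4180 and 4121 bp and a strongest peak at chr2:154889644-154892818. Eif2s2 ranked at 99.4 and 98.3 by signal in the replicates but at 79.9 in the replicated list. The peaks of that list carry the same values as in the pooled list. Eif2a and Eif2d, despite their symbols, encode separate factors that can deliver tRNA to the ribosome. Eif2a had a domain of 3717 bp and a peak shared with Serp1, and Eif2d had 1562 bp, an intermediate promoter and a percentile of 58.8 in replicate 1, 26.9 in replicate 2 and 33.2 in the replicated list, where it was the lowest of the group.

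All 5 subunit genes of the exchange factor eIF2B had a TSS peak, and their median domain was 1819 bp. Eif2b2, Eif2b3 and Eif2b5 lay below the median of all marked genes in width, and Eif2b1 and Eif2b4 above it. Eif2b5, the catalytic subunit, had the narrowest domain of the 5 in the replicated list, 1513 bp, and the highest rank by signal, 93.7. Its percentile was 88.1 in replicate 1 and 91.4 in replicate 2. In the replicated list Eif2b4 had the widest domain of the 5, 2783 bp, and the lowest rank, 15.4, with 84.6 in replicate 1 and 18.1 in replicate 2. Eif2b2 ranked low in both replicates, at 12.4 and 33.7, and Eif2b3 stood at 36.3 and 60.3. Eif2b1 had a single peak of 2456 bp whose summit was nearest to a start of Gtf2h3.

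The eIF1 and eIF1A proteins set the accuracy of start codon choice. Their genes were grouped with Eif1ad, and all 4 were marked. Eif1a had the widest domain of these, 4373 bp, and a peak shared with Tmed7, and ranked at 95.5 and 85.9 in the replicates. Eif1b had 1 TSS peak at chr9:120492160-120493860 and a narrow domain of 1701 bp, but ranked at 98.3 in the replicated list, with 85.4 in replicate 1 and 98.4 in replicate 2. Eif1 differed from it in build: in the replicated list 4 TSS peaks and 1 peak beyond the TSS window made up a domain of 3360 bp, the strongest was 658 bp wide, the narrowest among the members, and its percentile was 76.4 and 19.9. The summit of Eif1ad, which encodes a protein with an eIF1A-like domain, lay at -542 bp from its nearest start in the replicated list, in a peak shared with Banf1, but at 475 and 107 bp in the replicate lists.

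The Eif3 genes encode the large scaffold of the initiation complex, and 13 of the 14 were marked, all but Eif3j2. Their median domain was 2647 bp. Eif3a, which encodes the largest subunit, had a domain of 6457 bp in the replicated list, the widest of the members there, and of 6480 and 6133 bp in the replicates. In replicate 2 Eif4a2 was wider, at 6200 bp. Its main peak, chr19:60785877-60790689, was 4813 bp wide in the replicated list, and the strongest peak was 976 bp in replicate 1 and 5445 bp in replicate 2. The domain width differed less between the replicates than the width of the strongest peak. By signal Eif3a stood at 54.4 and 17.5. Its promoter sequence is shown for the widest domain of the replicated list, from the minus strand at chr19:60790694-60790943, ending at the base before the RefSeq start, with capitals at GGGCGG and at the cAMP response half-site TGACG.
Eif3a: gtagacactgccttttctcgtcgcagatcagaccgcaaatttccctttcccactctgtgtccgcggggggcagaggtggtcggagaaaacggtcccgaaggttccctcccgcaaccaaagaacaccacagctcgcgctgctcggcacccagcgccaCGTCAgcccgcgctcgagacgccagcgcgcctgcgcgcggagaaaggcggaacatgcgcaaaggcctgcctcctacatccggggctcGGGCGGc
It contained 28 CG dinucleotides in 250 bases at 65.6% GC, and 171 of the bases lay in the upstream TSS peak, the rest in the gap between its 2 peaks.

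Other eIF3 genes had high rank with moderate width. Eif3e, chr15:43280101-43282724, ranked at 99.8 and 92.0, and Eif3f, chr7:108934400-108936287, at 98.1 and 96.4. Eif3f had the highest percentile of the group in the replicated list, 98.2, and a domain of 1888 bp, while Eif3e had 3315 bp. Eif3h ranked at 97 and 74.6, Eif3j1 at 83.6 and 92.0, and Eif3i at 64.4 and 92.4. The summit of the replicated peak of Eif3i was nearest to a start of Tmem234. At the low end Eif3b stood at 15.7 in the replicated list, and its percentile was 91.1 in replicate 1 and 24.3 in replicate 2. Eif3d (74.3 and 15.3), Eif3g (72.2 and 18.0) and Eif3k (39.7 and 21.6) were also lower in replicate 2. So were Eif3c (77.6 and 44.6), Eif3l (76.5 and 58.5) and Eif3m (67.5 and 47.4), which stood at 25.9, 45.9 and 25.4 in the replicated list.

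The genes of the eIF4A helicases, which unwind mRNA leaders, spanned the members' full range of signal in the replicated list. Eif4a3, the helicase of the exon junction complex, was the highest member there, at rank 53 of 11037 marked genes, with percentiles of 95.3 and 98.5 in the replicates. Eif4a1, the main helicase of cap-dependent initiation, was the lowest there, at rank 9824, and had percentiles of 48.9 and 13.9. Their order was the same in both replicates, although neither was at the end of the members' range in replicate 1, and Eif4g2 was lower than Eif4a1 in replicate 2. The domain of Eif4a1 was nevertheless the wider one, at 2970 bp against 2322 bp. Eif4a2 had a domain of 6133 bp in 3 TSS peaks, 5875 and 6200 bp in the replicates, and all 20 of its annotated starts were near a peak. Eif4b and Eif4h, which stimulate the helicases, had domains of 3949 and 2848 bp, and Eif4b ranked at 89.4 and 21 in the replicates.

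The promoters of the highest and the lowest member by signal in the replicated list are shown side by side. These 2 genes were picked after their values were seen. Both run on the minus strand, Eif4a3 at chr11:119300090-119300293 and Eif4a1 at chr11:69672424-69672673. Capitals mark the SP and KLF box, the half-site, the CCAAT box, the E-box CACGTG and the YY1 core AAGATGG, on either strand.
Eif4a3: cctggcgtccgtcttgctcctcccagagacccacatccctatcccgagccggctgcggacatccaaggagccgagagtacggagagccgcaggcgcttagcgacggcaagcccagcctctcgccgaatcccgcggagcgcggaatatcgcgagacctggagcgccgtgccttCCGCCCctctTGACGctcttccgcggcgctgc
Eif4a1: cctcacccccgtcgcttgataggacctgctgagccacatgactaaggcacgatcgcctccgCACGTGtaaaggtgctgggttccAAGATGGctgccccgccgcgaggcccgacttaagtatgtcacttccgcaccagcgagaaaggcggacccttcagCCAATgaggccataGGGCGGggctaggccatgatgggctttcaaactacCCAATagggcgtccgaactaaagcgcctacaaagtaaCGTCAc
The sequence of Eif4a3 had 68.6% GC and 26 CG dinucleotides in 204 bases, and that of Eif4a1 had 58.8% GC and 18 in 250. Eif4a1 held matches to all 5 motifs, and Eif4a3 to the SP and KLF box and the cAMP response half-site. Of the Eif4a1 bases 3 lay in a TSS peak, since its start and the sequence before it fell in the gap between its 2 peaks. Of the Eif4a3 bases 95 did, although its start also lay between 2 peaks. The Eif4a3 sequence ends 47 bases before the RefSeq start, because exon bases were left out. That of Eif4a1 ends 1 base before its start, so these counts cover unlike stretches.

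In the eIF4E family, Eif4e and Eif4e2 were marked and Eif4e1b and Eif4e3 were not. Eif4e encodes the protein that binds the mRNA cap. Its domain was 4546 and 4376 bp in the replicates and 4378 bp in the replicated list, where it was built of 3 TSS peaks, with the strongest at chr3:138527684-138530102, downstream of its first starts. Its percentile was 50.3 and 64.4. Eif4e2, a cap-binding repressor, had a single peak of 2435 bp with its summit at -240 bp from a start (330 and -241 bp in the replicates), and stood at 88.8 and 45.2. The upstream sequence of Eif4e, the marked paralogue of Eif4e3, is given from the plus strand at chr3:138525941-138526178, ending 13 bases before the 5'-most RefSeq start. It has no capitals because none of the 9 motifs searched was in it.
Eif4e: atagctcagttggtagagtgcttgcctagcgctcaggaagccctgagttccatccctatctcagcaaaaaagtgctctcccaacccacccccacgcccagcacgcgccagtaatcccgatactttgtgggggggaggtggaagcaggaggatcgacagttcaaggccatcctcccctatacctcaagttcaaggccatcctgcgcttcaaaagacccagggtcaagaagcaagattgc
All 238 of these bases lay in a TSS peak, with 7 CG dinucleotides. The 250 bases before the other RefSeq start, at position 138527268, held 2 matches to CACGTG, 228 and 64 bases before that start, and 15 of those bases lay in a peak. Those bases are exonic in a longer annotated transcript and are not printed.

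The proteins that bind eIF4E were marked for 3 of 4 genes. Eif4ebp1, which encodes the repressor released by mTOR, ranked at 96.3 in replicate 1 and 82.8 in replicate 2, with its strongest peak at chr8:27259238-27261169. An additional peak of 1218 bp lay in an intron at no annotated start and was the widest of the 9 such peaks, which fell in or at the ends of 8 members. Eif4ebp2 had a domain of 1501 bp in the replicated list and opposite ranks in the replicates, 42.3 and 89.1. Eif4enif1, the nuclear importer and translational repressor of eIF4E, had 3119 bp and stood at 81.4 and 56.6.

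The eIF4G genes encode the scaffolds that join eIF4E to eIF4A and eIF3, and all 3 were marked. Eif4g1 was the 1 member marked away from its 5'-most start. Its TSS peaks began 3358 bp downstream of that start and ended 6287 bp downstream, at chr16:20671671-20672689 and chr16:20672750-20674600, and 15 of its 23 annotated starts were near them. The 5'-most start lay in a low-CpG sequence with a ratio of 0.197, of whose 32-base words 43.5% were repeated elsewhere, the highest share of the members. The role of read placement there was not tested. Eif4g1 ranked at 93.5 in the replicated list but at 39.2 and 54.6 in the replicates. Eif4g2, which encodes a relative without the eIF4E site, had the widest domain of the 3, 4659 bp, and percentiles of 79.2 and 10.3. Eif4g3 stood at 93.7 and 48.9, with a domain of 2626 bp.

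Among the late factors, the paralogues Eif5a and Eif5a2 differed in width. Both encode the hypusine-containing factor that helps ribosomes through difficult peptide bonds. Eif5a had domains of 4762 and 3747 bp in the replicates, with 4 and 2 TSS peaks, and 9 of 9 starts near a replicated peak. Eif5a2 had 1 peak, chr3:28781344-28782081, of 668 and 742 bp, the narrowest domain of the members in each list. It lay wholly downstream of the start, and no other member had its 5'-most start beside a peak without another peak on the far side, Eif4g1 aside. The percentile of Eif5a was 32.7 and 84.7, and that of Eif5a2 was 19.4 and 47.1. Eif5a2 was thus lower in both, although its promoter was high in CpG, with a ratio of 0.8. Its upstream sequence, from the plus strand at chr3:28781109-28781275, is shown for the narrowest domain. The gene was picked for this after its values were seen. The ETS core CCGGAAG is capitalized together with the E-box, the half-site, the SP and KLF box and the CCAAT box. The longest run of capitals is an E-box that overlaps a half-site by 2 bases, followed directly by an SP and KLF box.
Eif5a2: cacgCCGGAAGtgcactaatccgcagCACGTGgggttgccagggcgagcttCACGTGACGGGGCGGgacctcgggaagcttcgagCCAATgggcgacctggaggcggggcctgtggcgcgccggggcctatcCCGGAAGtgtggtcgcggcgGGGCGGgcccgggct
In 167 bases the sequence held 2 matches each to the ETS core, the E-box and the SP and KLF box, and none of its bases lay in a TSS peak.

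Eif5, which makes eIF2 hydrolyse its GTP, had a domain of 4383 bp and percentiles of 74.0 and 54.1. Eif5b had domains of 5738 and 3867 bp in the replicates. In the replicated list the strongest of its 3 TSS peaks, chr1:37996299-37997245, had its summit at -1224 bp from the nearest start, on the side of the divergent gene Txndc9. In the replicate lists its strongest summit was downstream, at 933 and 111 bp. Eif6, which keeps the ribosomal subunits apart, had 2751 bp and stood at 31.0 and 37.3, low in both replicates.

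The position of the peaks around the starts was close to that of other marked genes. The strongest summit was downstream of the nearest start in 35 of 48 members (72.9%, against 68.6% of all marked genes), with a median of 133.5 bp against 104 bp. It was downstream for 34 members in replicate 1 and 38 in replicate 2, and on the same side in both for 32. Summits fell in an intron in 18 members, in a non-coding exon in 16, in coding sequence in 5 and upstream of the gene in 9. The 5'-most start lay inside a peak in 30 members (62.5%, against 55.3%), and in 16 it lay in a gap between 2 peaks (33.3%, against 29.8%). In the replicated list 34 members had 2 or more TSS peaks (70.8%, against 67.7% of all marked genes). The number of peaks depended on the list: 46 members had 2 or more in replicate 1 and 29 in replicate 2.

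**Figure D4:**
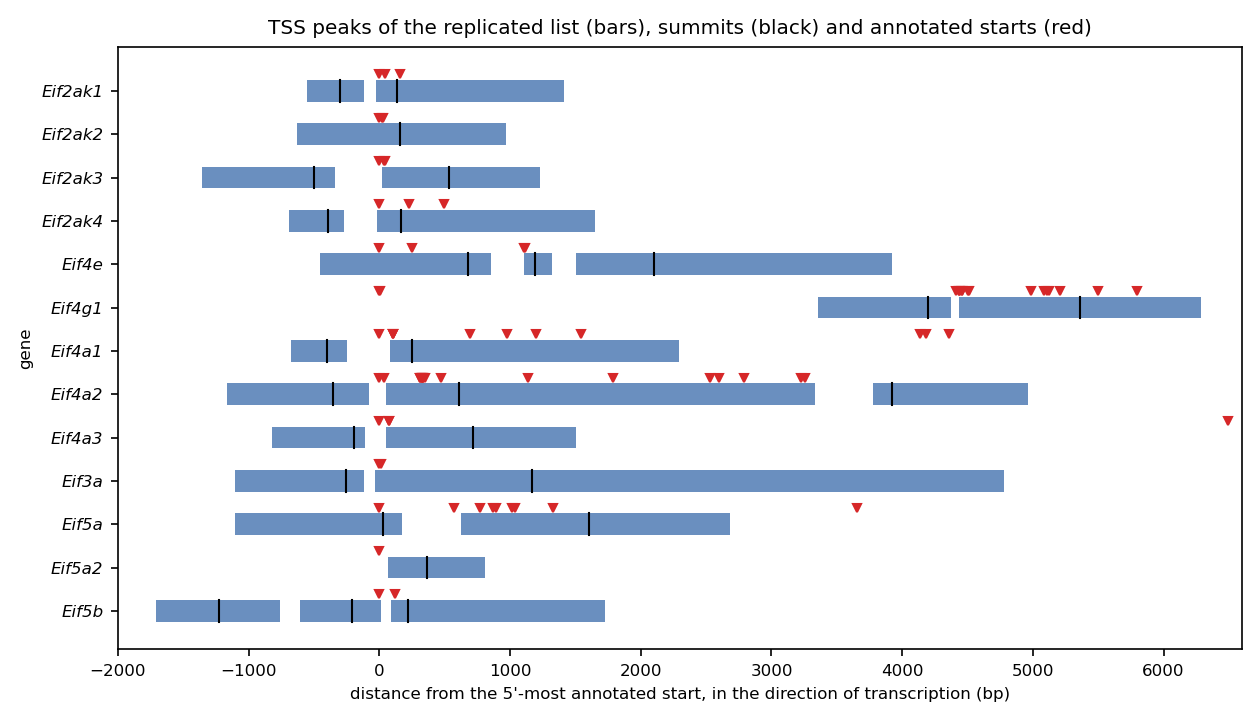
TSS peaks of the replicated list (blue bars), their summits (black lines) and annotated starts (red triangles) for 13 members, drawn by distance in bp from the 5'-most annotated start in the direction of transcription. Eif4g1 is marked only from 3358 bp onward, Eif5a2 only downstream of its start, and Eif3a and Eif4a2 over several kb.

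Alternative starts were covered unevenly. The members had 299 distinct annotated starts, and 214 were within 1000 bp of a peak. Within marked genes this was 73.5% for the members and 65.7% for all genes. In 16 marked members every start was near a peak. The other 32 had 77 starts farther away, of which 75 were downstream of a marked start. Small nucleolar RNA (snoRNA) genes, which sit in introns and are processed from the host transcript, were found on the same strand in 7 members, or 14.6% of the marked members against 1.77% of all marked genes. The hosts were Eif3a, Eif4a1, Eif4a2, Eif4g1, Eif4g2, Eif5 and Eif2ak3, with 14 snoRNA genes in all, 5 of them in Eif4a2. Their median domain was 4383 bp, and that of the other 41 marked members was 2647 bp. Over all marked genes the medians were 2991 bp for 195 hosts and 2247 bp for the rest.

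Peaks were shared with another protein-coding gene in 10 members (20.8%, against 24.0%). The partners were Tmed7 (Eif1a), Banf1 (Eif1ad), Serp1 (Eif2a), Atp6v1d (Eif2s1), Gtf2h3 (Eif2b1), Snx17 (Eif2b4), Tmem234 (Eif3i), Map4k1 (Eif3k), Ccdc73 (Eif3m) and Txndc9 (Eif5b). In an alternative each peak was given only to the gene of the nearest start, with ties settled by the start nearest its summit. Eif1ad, Eif2b1 and Eif3i then lost their peak, although each had a start inside one, and 45 members were marked. H3K4me3 has no strand, so the signal of such a pair cannot be divided between its genes.

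Short motifs were counted on both strands in the 300-base RefSeq promoters of the 40 members in the table, all of them marked. CCGGAAG was in 13 of the 40 (32.5%), against 20.5% of 8699 promoters of marked genes and 12.3% of all promoters. CACGTG was in 8 (20.0%, against 10.5% and 8.12%), and TGACG in 18 (45.0%, against 33.6% and 24.4%). GCATGCG, an NRF1 core, was in 4 (10%, against 7.24% and 4.67%). The others stood near or below the marked genes: CCAAT in 13 (32.5%, against 39.6%), AAGATGG in 3 (7.50%, against 7.75%) and TATAAA, the TATA box, in 3 (7.50%, against 6.15%). These are matches of letters, not sites of binding, and no test was made. The 8 with CACGTG were Eif1b, Eif3a, Eif3f, Eif3k, Eif4a1, Eif4g1, Eif4h and Eif5a2. Eif4e is not among them, because the 2 matches before its other RefSeq start were not part of this count.

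Other genes of the pathway, from a list of 40 regulators and partners of initiation, were marked in 39 of 39 found. Gcn1 was not found under that symbol. Most of the list had high-CpG promoters. Over all genes 50.3% were marked, and 79.8% of those of the high-CpG class. The median domain of the 39 was 2773 bp and their median signal percentile 52.5, against 2767 bp and 66.0 for the marked members. The widest were Ppp1r15b (7679 bp) and Ddit3 (6181 bp for each of the 2 overlapping entries of that symbol), which act downstream of the eIF2 kinases as the constitutive partner of the eIF2α phosphatase and as a stress transcription factor. Atf4, whose mRNA is translated when eIF2 is phosphorylated, had 3079 bp. Of genes listed by cell type, 8 of 8 erythroid genes were marked, among them Gata1, Klf1 and Epor. For genes of other blood lineages this was 0 of 6, and for other tissues 0 of 4. The genes of both these lists had low-CpG or intermediate promoters, classes of which 16.6% and 53.0% were marked over all genes. Gata1, Klf1 and Epor also had low-CpG promoters. The lists were chosen with earlier results of these data known, so the counts are no independent check of the label. Of 6 germ-line genes 1 was marked, Gdf9, in a peak shared with Uqcrq.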

How the data were processed

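H3K4me3 ChIP-seq peaks of MEL cells were taken from 4 deposited mm10 lists: 1 per replicate, 1 from both replicates pooled, and 1 of replicated peaks. Per the notes deposited with the samples, peaks were derived from alignments and a control. The programs used for this were not named in the sources used here. Each signal value is a score per peak made by the authors, of undefined scale, and was used only to rank peaks within a list. The authors also deposited a −log10 q for each peak. No read counts are in the lists, so the depth and the precision it gives are not known, and low depth alone could leave a gene without a peak. The labels name the same biosample for both replicates, so their spread may be partly technical.

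Peaks on chromosomes 1 to 19, X and Y (37379 of 37387 replicated peaks) were assigned to every GENCODE M21 protein-coding gene with a start within 1000 bp. Repeated sequence was the percentage of 32-base words of the promoter found more than once on either strand of GRCm38.p6. Members and gene lists were chosen with earlier results of these data known. Every member is named, with fuller values for the kinases, the unmarked members and the widest, highest-ranked and lowest-ranked of each role. Because there was 1 group, no test between conditions was made, and shares are set beside those of all genes. The alternatives tried were the 5'-most start alone, windows of 500 and 2500 bp, −log10 q of at least 5, the pooled and single-replicate lists, nearest-start assignment, domain gaps of 500 and 2000 bp, 50% overlap and promoter windows of 501 bases. The assignment was tested on simulated data. Python 3.11.15, numpy 2.4.6, pandas 2.3.3, numba 0.67.0 and matplotlib 3.10.9 were used.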

Additional observations from a re-analysis of the deposited data

How the results depend on the processing

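Between 45 and 48 members were marked under the alternatives tried, and the calls that changed were those of Eif4g1 (5'-most start alone) and of Eif1ad, Eif2b1 and Eif3i (nearest start only). Widths depended on the list. The median width of the strongest peak was 1852 bp, and with 1 replicate left out it ranged from 1388 to 1890 bp. The median domain width was 2767 bp and ranged from 2790 to 3161 bp. In both cases the replicate 1 list, which divides domains into more peaks and extends them further, gave the value farthest away. The other 51 values stayed within the spread between replicates or within 1.5 times the count. That spread came from the replicate lists themselves, so it is a lenient limit for the values from those lists. The median signal percentile, 66.0, stayed within it but was 57.6 without replicate 1 and 75.3 without replicate 2. With 50% overlap of both peaks required, 73 of the 90 TSS peaks of the members were found in both replicates, in place of 89. Both counts describe how the replicated list was made. No paired analysis was possible because there was 1 group. Unknown depth limits every statement on a missing peak.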
